A study of Mus musculus with 16 samples.

Results

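The genes described are the nuclear-encoded genes of oxidative phosphorylation, taken from the 32285 genes counted in single nuclei of the mouse dentate gyrus (DG). Members were chosen by symbol, as every gene whose name begins with Ndufa, Ndufb, Ndufc, Ndufs or Ndufv, with Sdha, Sdhb, Sdhc or Sdhd, with Uqcr, with Cox and a digit from 4 to 8, or with Atp5, leaving out names that contain -ps (1 gene) and the Ndufaf assembly factors. This gave 89 members, of which 38 belong to complex I, 8 to complex II, 8 to complex III, 18 to complex IV and 17 to complex V. The 8 names of complex II hold the 4 subunits *Sdha*, *Sdhb*, *Sdhc* and *Sdhd* and also *Sdhaf1*, *Sdhaf2*, *Sdhaf3* and *Sdhaf4*, which encode factors that assemble the complex. The cytochrome c1 gene *Cyc1* of complex III and the inhibitor *Atpif1* of complex V were not matched by the rule.

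The nuclei came from microdissected DG of 4 wild-type mice (WT, labelled VV) and 4 mice homozygous for the V321L mutation of *Nrg1* (labelled LL), with 2 females (F1, F2) and 2 males (M1, M2) of each genotype. *Nrg1* encodes Neuregulin 1, a ligand of ErbB receptors, and V321L replaces a valine by a leucine in it. The mutation was carried in every cell, and the labels give no age. A single Multiome library per mouse gave RNA together with open chromatin for each nucleus.

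Oxidative phosphorylation takes place in the inner mitochondrial membrane. Complex I takes electrons from NADH and complex II from succinate, both pass them through ubiquinone to complex III, and cytochrome c carries them on to complex IV, which reduces oxygen. Complexes I, III and IV pump protons as electrons pass, and complex V, the ATP synthase, uses the proton gradient to make ATP. Most subunits are encoded in the nucleus, translated in the cytosol and imported, and a few core subunits of complexes I, III, IV and V are encoded by mitochondrial DNA. Neurons use much of this ATP to restore ion gradients after synaptic and action potentials. A droplet that holds a nucleus also takes up free RNA from broken cells, in which spliced cytoplasmic messenger RNA is abundant.

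Printed first are stretches of the promoters of members whose RNA changes are described below. They are those of the member with the largest rise in complex III (*Uqcr11*), in complex V (*Atp5e*), of 2 further members with a large rise and a match to the motif of NRF1, a regulator of respiratory genes (*Ndufa11* and *Atp5k*), and of the 2 members that fell (*Sdhaf3* and *Cox7b2*). Each is the 100 bases before the RefSeq start of the gene, 5′ to 3′ on the strand of the gene, from the GRCm38.p6 build. Capitals mark matches, on either strand, to GCGCATGCG (NRF1), CCGGAAGT (GABPA), AAGATGGCG (YY1) or GGGCGG (SP1).
Uqcr11: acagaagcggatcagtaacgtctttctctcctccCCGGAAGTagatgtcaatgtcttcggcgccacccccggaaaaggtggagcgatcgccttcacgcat
Atp5e: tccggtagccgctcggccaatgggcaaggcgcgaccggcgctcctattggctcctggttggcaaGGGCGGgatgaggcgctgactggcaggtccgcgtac
Ndufa11: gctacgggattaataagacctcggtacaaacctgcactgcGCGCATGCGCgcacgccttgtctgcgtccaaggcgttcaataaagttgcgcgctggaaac
Atp5k: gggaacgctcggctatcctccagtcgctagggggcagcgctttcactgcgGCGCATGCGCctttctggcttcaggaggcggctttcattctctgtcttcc
Sdhaf3: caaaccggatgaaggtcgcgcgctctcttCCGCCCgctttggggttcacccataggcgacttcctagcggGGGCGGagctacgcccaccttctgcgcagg
Cox7b2: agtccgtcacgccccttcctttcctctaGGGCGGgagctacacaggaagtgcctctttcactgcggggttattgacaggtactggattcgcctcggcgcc
The stretch of *Uqcr11* lies at chr10:80406822-80406921 on the minus strand, that of *Atp5e* at chr2:174464102-174464201 on the minus strand and that of *Ndufa11* at chr17:56717662-56717761 on the plus strand. The stretch of *Atp5k* lies at chr5:108434400-108434499 on the minus strand, that of *Sdhaf3* at chr6:6955918-6956017 on the plus strand and that of *Cox7b2* at chr5:71548206-71548305 on the minus strand. In the longer window from 250 bases before to 50 after the start, promoters of 73 members could be matched. The NRF1 letters were found in 8 of them (11.0%) and in 3.97% of the 9420 promoters of genes tested in granule nuclei. GABPA letters were found in 5 member promoters (6.85%) and in 8.68% of all, YY1 letters in 7 (9.59%) and in 3.49% of all, and SP1 letters in 32 (43.8%) and in 64.0% of all. The NRF1 letters overlap their own reverse complement, so that both strands can match at 1 site. These matches describe letters in the window and do not show that a factor is bound there.

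Nuclei were taken with the limits of the study on UMIs, genes and mitochondrial share, and were clustered without the members. RNA depth ranged from 4326426 to 14624265 UMIs over the WT libraries and from 15505354 to 23582057 UMIs over the V321L libraries. Granule nuclei (GCs), which expressed 10 of 10 granule markers in both genotypes, numbered 1329 to 2454 in a WT mouse and 826 to 1224 in a V321L mouse. Their median depth per mouse was 1039 to 1929 UMIs for WT and 3138 to 4650 UMIs for V321L, and their median mitochondrial share was 0.0679% to 0.136% for WT and 0.299% to 1.08% for V321L. Cluster 0 held 80.6% of the V321L GCs and 0.609% of the WT GCs, while clusters 1, 2 and 3 held 31.8%, 26.4% and 28.4% of the WT GCs and cluster 4, led by mitochondrial genes, 12.7%, so the genotypes were compared within the class but largely in different clusters. Summed oligodendrocyte markers in GCs ranged from 374 to 449 UMIs per 1000000 UMIs of those nuclei (CPM) in WT and from 394 to 483 CPM in V321L mice, with 7 of 7 detected. The granule markers summed to 8228 to 9472 CPM for WT and 5709 to 6499 CPM for V321L mice. Summed astrocyte markers, with 9 of 9 detected, ranged from 1445 to 1590 CPM in WT and from 927 to 1039 CPM in V321L mice. Of 16406 nuclei in all, 161 barcodes occurred in more than 1 library, with at most 13 shared by any pair.

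The members were higher in V321L GCs in all 5 complexes. UMIs were summed over the GCs of each mouse and tested by the quasi-likelihood test of edgeR over all 12286 genes that passed its filter on low counts. Of the 89 members, 82 passed this filter, and 77 of them were higher in V321L GCs, against 38.5% of all genes tested. Members with few UMIs over the WT mice, such as *Uqcr11* (13), *Ndufb7* (13) and *Sdhaf1* (9), passed it through their level in V321L mice. So did others, among them *Ndufa13* (30), *Ndufa11* (28), *Ndufs7* (37), *Ndufa1* (34), *Ndufb11* (45) and *Atp5e*, and their number was not taken. For such members only a rise could be called, and they are included in the counts and medians given here. *Sdhaf3* and *Cox7b2* were lower (2 members), against 31.6% of all genes tested, and *Ndufs1*, *Ndufs4* and *Sdhaf2* were not called in either direction. The median log2 fold change of the tested members was 2.85, a 7.19-fold higher level, and the median over all genes was 0.11. The quartiles of the members were 1.91 and 3.53. In CPM, the lowest V321L mouse was above the highest WT mouse for 79 of the 82 members, against 48.6% of all genes tested.

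Levels are given as CPM of all RNA UMIs of the GCs of a mouse, without further scaling. Fold changes were fitted with TMM factors, which were 0.76 to 0.95 for WT and 1.14 to 1.18 for V321L mice and lowered the log2 fold change of the median gene by 0.46 against plain library sizes. With plain library sizes, the calls over all genes were 6697 higher and 2122 lower, where TMM gave 4734 and 3883, so that higher calls made up 75.9% and 54.9% of all calls. On that scale 79 members were higher and 2 lower, and *Ndufs1* and *Ndufs4* were among the higher ones with log2 fold changes of 0.39 and 0.40. Scaled by TMM, the mice of the 2 genotypes did not overlap for 76 members, with V321L above WT for 74 and below for 2. The share over all genes was not taken on this scale, so these counts have no background beside them.

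**Figure D1:**
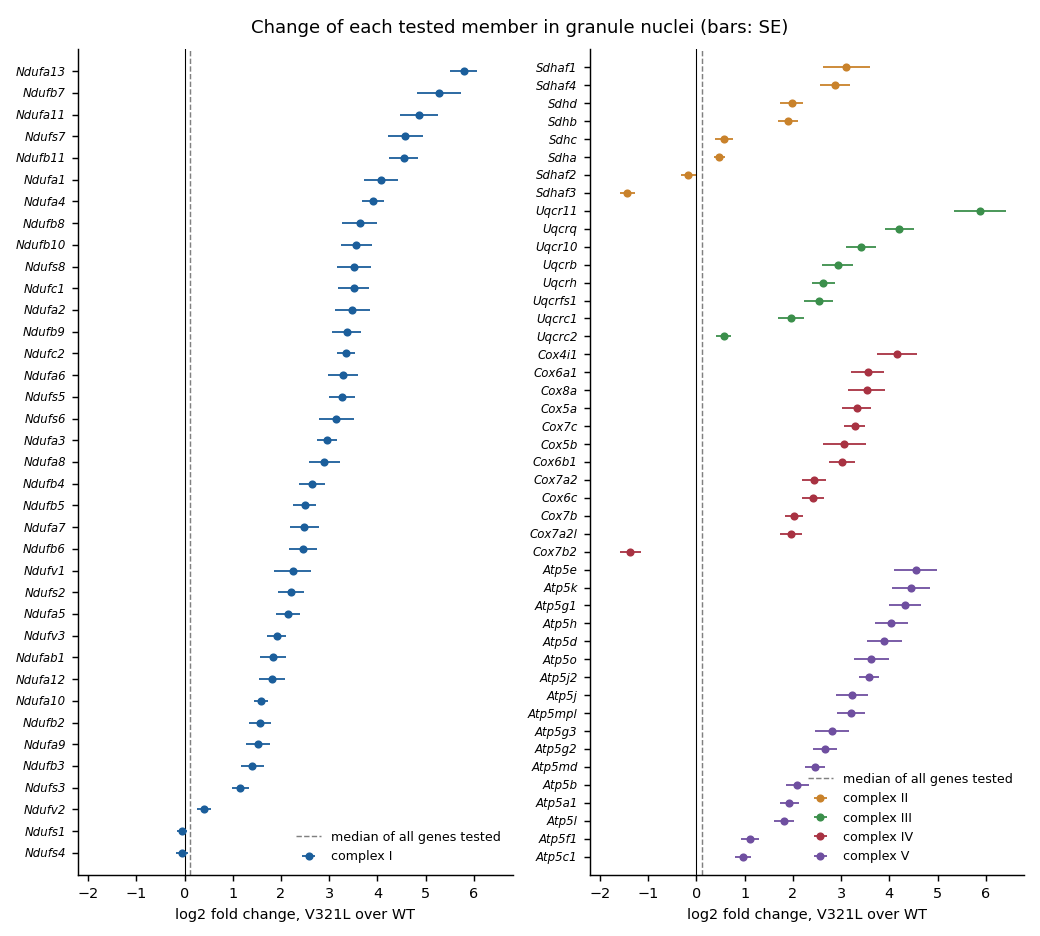
Each point is the log2 fold change of 1 tested member in granule nuclei, V321L over WT, with its SE (4 mice per genotype), complex I on the left and the other complexes on the right, and the dashed line is the median of all genes tested (0.11). All but 5 of the 82 members lie to the right of 0 by more than the test's threshold, from *Uqcr11* at 5.88 down to *Sdhaf3* at -1.43.

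Complex I, the NADH dehydrogenase, is the largest of the complexes, and 37 of its 38 members were tested. Of these 35 were higher in V321L GCs and 2 were not called, with a median log2 fold change of 2.90. Summed over complex I, the level was 575, 493, 752 and 589.7 CPM in the WT mice (F1, F2, M1 and M2, the order used throughout) and 4281, 2547, 2494 and 4219 CPM in the V321L mice. The groups did not overlap, M1 was the highest WT mouse, and F1 and M2 were the higher V321L mice. This order within each genotype recurred for most members, since M1 was the highest WT mouse for 67 of the 82 and F1 and M2 lay above F2 and M1 in V321L for 79. The order was not counted over all genes, so these counts have no background beside them.

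*Ndufa13*, an accessory subunit that is also known for a role in cell death signalling, changed most within complex I. Its level was 1.85, 1.07, 4.72 and 3.05 CPM in the WT mice and 218, 129.9, 154 and 215 CPM in the V321L mice, which came from 6, 5, 8 and 11 UMIs in the WT mice and 856, 730, 582 and 662 UMIs in the V321L mice. Its log2 fold change was 5.79 (SE 0.28, adjusted p = 2.53e-08), a 55.2-fold higher level. The lowest V321L mouse thus lay far above the highest WT mouse, although the WT values rested on few UMIs. *Ndufa13* passed the filter on low counts through its level in V321L mice, so only a rise could be called. *Ndufv1*, which encodes the subunit that holds the NADH binding site, measured 5.85, 3.42, 15.3 and 4.99 CPM in the WT mice and 54.3, 25.5, 26.8 and 61.4 CPM in the V321L mice. Its log2 fold change was 2.25 (SE 0.38, adjusted p = 1.51e-04), below the median of the complex. *Ndufa4*, an accessory subunit later assigned to complex IV, measured 14.8, 10.5, 21.8 and 11.9 CPM in the WT mice and 357, 227, 203 and 362 CPM in the V321L mice and changed by 3.90 (SE 0.23, adjusted p = 7.57e-08). Its paralogue *Ndufa4l2* was not tested, with 0, 0, 0 and 0 UMIs in the WT mice and 1, 2, 0 and 3 UMIs in the V321L mice.

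The largest subunit of complex I, *Ndufs1*, which carries iron-sulfur clusters, stood apart from these. It measured 91.2, 70.1, 81.5 and 88 CPM in the WT mice and 102, 107, 115 and 111 CPM in the V321L mice, and its log2 fold change was -0.06 (SE 0.10, adjusted p = 0.647). *Ndufs4*, an accessory subunit whose loss in mice gives a Leigh-like encephalopathy, measured 111, 111, 107 and 117 CPM in the WT mice and 156, 132, 132 and 173 CPM in the V321L mice and changed by -0.06 (SE 0.12, adjusted p = 0.684). In plain CPM both lay higher in every V321L mouse, by no more than the shift that TMM removes. With each mouse left out in turn, the log2 fold change lay between -0.16 and -0.02 for *Ndufs1* and between -0.18 and 0.01 for *Ndufs4*. *Ndufv2* (log2 fold change 0.40) and *Ndufs3* (1.16) had the smallest rises that passed the test in complex I. *Ndufv2* was not called among nuclei with a mitochondrial share under 0.3% (0.04, adjusted p = 0.846) and turned to -0.27 (adjusted p = 0.0668) after the subtraction of free RNA described below. Among the others, rises over 4 on the log2 scale were those of *Ndufb7* (5.28), *Ndufa11* (4.86), *Ndufs7* (4.58), *Ndufb11* (4.54) and *Ndufa1* (4.07). All of these passed the filter on low counts through V321L mice, so only a rise could be called for them. Core subunits and accessory subunits were found at both ends of the order.

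Complex II, the succinate dehydrogenase, also belongs to the citric acid cycle and is encoded wholly in the nucleus. Its summed level rose least of the 5 complexes, from 174 CPM ± 20.3 (SD, n = 4) in WT to 366 CPM ± 68.8 (SD, n = 4) in V321L mice. This sum holds the 4 subunits and also the 4 assembly factors, while that of complex I leaves the Ndufaf assembly factors out. All 4 subunits were higher, with a median log2 fold change of 1.23. *Sdha*, the flavoprotein that oxidizes succinate, measured 57.6, 47.5, 57.9 and 56.9 CPM in the WT mice and 103, 95.2, 96.5 and 122 CPM in the V321L mice, and its log2 fold change was 0.47 (SE 0.11, adjusted p = 0.00179). It was not called among nuclei with a mitochondrial share under 0.3% (0.23, adjusted p = 0.162) or thinned to 1000 UMIs (0.32, adjusted p = 0.0917). *Sdhb*, the iron-sulfur subunit, measured 17.2, 13.7, 27.2 and 21.4 CPM in the WT mice and 127, 75.8, 75.6 and 113 CPM in the V321L mice, and its log2 fold change was 1.90 (SE 0.20, adjusted p = 2.97e-06). The membrane anchors *Sdhc* (0.57) and *Sdhd* (1.97) had fold changes near those of *Sdha* and *Sdhb*, respectively, and the groups overlapped for neither. *Sdhc* was not called under a mitochondrial share of 0.3% (0.34, adjusted p = 0.210), among nuclei of 1000 to 2500 UMIs (0.49, adjusted p = 0.145) or after subtraction of free RNA (0.57, adjusted p = 0.0724).

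The 4 assembly factors of complex II spread from the largest rise to the largest fall of this complex. *Sdhaf1*, which takes part in giving *Sdhb* its iron-sulfur clusters, measured 1.23, 0.855, 0 and 0.277 CPM in the WT mice and 8.66, 5.16, 8.22 and 12.7 CPM in the V321L mice, resting on 4, 4, 0 and 1 UMIs in the WT mice and 34, 29, 31 and 39 UMIs in the V321L mice, and its log2 fold change was 3.11 (SE 0.50, adjusted p = 8.63e-05). *Sdhaf4* rose by 2.88. *Sdhaf2*, which helps attach FAD to *Sdha*, was not called (-0.17), and it was the 1 tested member whose groups overlapped in CPM. *Sdhaf3*, another factor of the iron-sulfur subunit, fell. It measured 42.2, 41.5, 36 and 52.4 CPM in the WT mice and 22.9, 23.3, 19.4 and 22.7 CPM in the V321L mice, and its log2 fold change was -1.43 (SE 0.15, adjusted p = 2.97e-06). For this gene every V321L mouse lay below every WT mouse.

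Complex III, the cytochrome bc1 complex, had 8 tested members and all 8 were higher in V321L GCs. Its summed level was 103, 88.3, 125 and 101 CPM in the WT mice and 935, 487, 477 and 930.2 CPM in the V321L mice. *Uqcr11*, one of its small subunits, had the largest rise of all 82 members. It measured 0.308, 0.641, 4.13 and 0.555 CPM in the WT mice and 126, 45.4, 50.9 and 118 CPM in the V321L mice, which came from 1, 3, 7 and 2 UMIs in the WT mice and 494, 255, 192 and 362 UMIs in the V321L mice, and its log2 fold change was 5.88 (SE 0.55, adjusted p = 1.17e-06), a 58.9-fold higher level. WT M1 held more of its WT UMIs than the 3 other WT mice did, and without that mouse the log2 fold change was 6.71. *Uqcrfs1*, the Rieske iron-sulfur protein, measured 8.62, 7.48, 13 and 5.83 CPM in the WT mice and 88.6, 47.7, 39.2 and 90.3 CPM in the V321L mice and changed by 2.53 (SE 0.30, adjusted p = 6.81e-06). *Uqcrc1*, a core protein of the complex, measured 11.1, 9.4, 17.1 and 10.3 CPM in the WT mice and 76.4, 40.8, 41.1 and 89.7 CPM in the V321L mice and changed by 1.97 (SE 0.27, adjusted p = 2.59e-05). The other core protein, *Uqcrc2*, had the smallest change of the complex. It measured 46.5, 45.5, 45.5 and 57.4 CPM in the WT mice and 111, 76.4, 85.9 and 126 CPM in the V321L mice, and its log2 fold change was 0.56 (SE 0.16, adjusted p = 0.00658). It was not called among nuclei with a mitochondrial share under 0.3% (0.08, adjusted p = 0.710) or with 1000 to 2500 UMIs (0.45, adjusted p = 0.0797). The other 4 members, *Uqcrq* (4.21), *Uqcr10* (3.41), *Uqcrb* (2.93) and *Uqcrh* (2.63), are small subunits of the complex and lay between these ends.

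**Figure D2:**
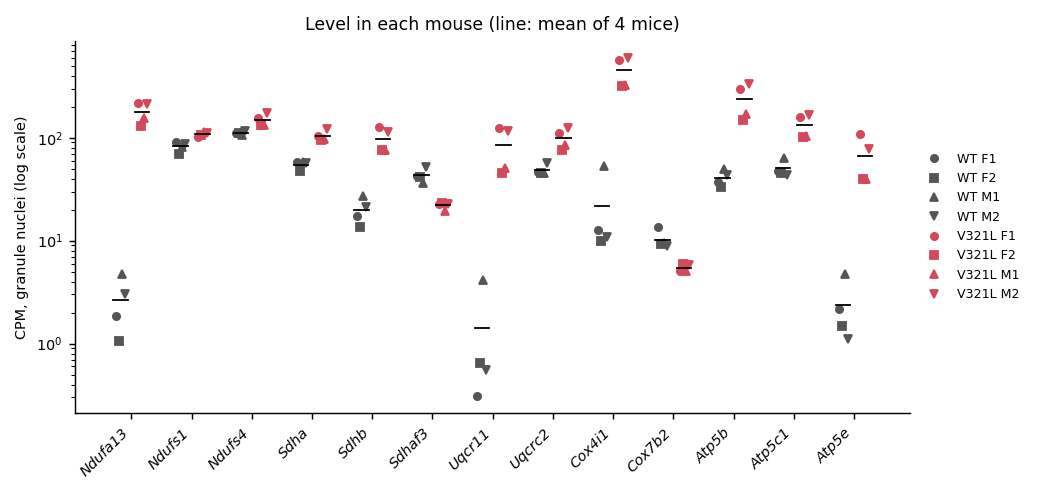
Levels of 13 members in the granule nuclei of each mouse, in CPM on a log axis, with WT in grey, V321L in red, a symbol for each replicate label and a line at the mean of 4 mice. *Ndufa13*, *Uqcr11*, *Cox4i1* and *Atp5e* are separated widely, *Ndufs1* and *Ndufs4* narrowly, and *Sdhaf3* and *Cox7b2* lie lower in the V321L mice.

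Complex IV, cytochrome c oxidase, has subunits with forms that differ between tissues, and 12 of its 18 members were tested. Of these 11 were higher and 1 was lower, with a median log2 fold change of 3.04. The summed level was 188, 151, 345 and 184 CPM in the WT mice and 2858, 1506, 1583 and 2877 CPM in the V321L mice, the largest ratio of means of the 5 complexes (10.2). *Cox4i1*, the common form of subunit 4, measured 12.6, 9.83, 53.7 and 10.8 CPM in the WT mice and 572, 318, 328 and 601 CPM in the V321L mice, and its log2 fold change was 4.16 (SE 0.41, adjusted p = 1.85e-06). WT M1 lay well above the other WT mice here, and without it the log2 fold change was 4.80. The form of subunit 4 that is known from lung and from low oxygen, *Cox4i2*, was not tested, with 0, 0, 0 and 1 UMIs in the WT mice and 0, 1, 1 and 0 UMIs in the V321L mice.

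*Cox5a*, a subunit that binds the matrix face of the core, measured 11.4, 10.3, 14.8 and 10.3 CPM in the WT mice and 232, 103, 91.2 and 206 CPM in the V321L mice and changed by 3.33 (SE 0.30, adjusted p = 9.77e-07). *Cox6a1*, the form of subunit 6a found in most tissues, measured 11.4, 5.98, 34.8 and 10.8 CPM in the WT mice and 254, 159, 173 and 287 CPM in the V321L mice and changed by 3.55 (SE 0.35, adjusted p = 1.57e-06). For both genes the groups lay far apart, and F1 and M2 were the higher V321L mice. The heart and muscle form *Cox6a2* was not tested, with 0, 0, 0 and 0 UMIs in the WT mice and 3, 2, 4 and 6 UMIs in the V321L mice. *Cox6b1*, a subunit on the outer side of the membrane that is the common form, measured 9.55, 7.69, 14.8 and 12.5 CPM in the WT mice and 159, 80.1, 81.4 and 156 CPM in the V321L mice and changed by 3.01 (SE 0.27, adjusted p = 8.35e-07), while the testis form *Cox6b2* gave 0, 0, 0 and 0 UMIs in the WT mice and 3, 3, 1 and 0 UMIs in the V321L mice and was not tested. *Cox7a2*, the form of subunit 7a outside muscle, measured 15.1, 10.5, 20.1 and 16.1 CPM in the WT mice and 152, 69.8, 84.8 and 138 CPM in the V321L mice and changed by 2.44 (SE 0.25, adjusted p = 2.20e-06). *Cox7a2l*, which takes part in joining complexes III and IV into supercomplexes, measured 17.9, 15, 15.3 and 18.3 CPM in the WT mice and 104, 63.5, 65.2 and 129 CPM in the V321L mice and changed by 1.96 (SE 0.23, adjusted p = 5.50e-06). The groups overlapped for none of these, and M1 was the highest WT mouse for *Cox6b1* and *Cox7a2* but not for *Cox7a2l*. *Cox8a*, a small subunit in its common form, measured 17.9, 10.7, 43.1 and 9.71 CPM in the WT mice and 361, 179, 189 and 412 CPM in the V321L mice and changed by 3.53 (SE 0.38, adjusted p = 3.61e-06). The muscle forms *Cox7a1* and *Cox8b* and the testis form *Cox8c* were not tested, with 0, 0, 0 and 1 UMIs in the WT mice and 2, 1, 1 and 1 UMIs in the V321L mice for *Cox7a1*, 1 UMI over all mice for *Cox8b* and 0 for *Cox8c*, where a count of 0 allows up to 3 UMIs. None of these forms of other tissues had over 15 UMIs in either genotype.

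*Cox7b2*, the form of subunit 7b known from testis, was the 1 member of complex IV that fell. It measured 13.6, 9.19, 9.45 and 8.88 CPM in the WT mice and 5.09, 5.87, 5.04 and 5.85 CPM in the V321L mice, and its log2 fold change was -1.37 (SE 0.22, adjusted p = 8.60e-05), while its paralogue *Cox7b* rose by 2.02. WT F1 was the highest mouse for it. It was not tested among nuclei with 1000 to 2500 UMIs, where too few of its UMIs were left.

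Complex V, the ATP synthase, had all 17 members tested and all 17 were higher in V321L GCs, with a median log2 fold change of 3.21. The summed level was 298, 247, 388 and 299.97 CPM in the WT mice and 2813, 1477, 1432 and 2799 CPM in the V321L mice. *Atp5a1* and *Atp5b* encode the alpha and beta subunits of the catalytic head. *Atp5a1* measured 39.4, 26.1, 43.7 and 35.8 CPM in the WT mice and 222, 128, 151 and 240.1 CPM in the V321L mice and changed by 1.93 (SE 0.19, adjusted p = 2.09e-06). *Atp5b* measured 37.6, 33.1, 50.2 and 43.6 CPM in the WT mice and 299, 148, 169 and 333 CPM in the V321L mice and changed by 2.09 (SE 0.23, adjusted p = 4.58e-06). Both had smaller rises than the median of the complex, and *Atp5c1*, the gamma subunit that turns within the head, had the smallest. It measured 48, 45.7, 63.8 and 43.8 CPM in the WT mice and 158, 103, 105 and 165 CPM in the V321L mice, and its log2 fold change was 0.96 (SE 0.17, adjusted p = 1.84e-04). *Atp5e*, the epsilon subunit of the stalk, had the largest rise. It measured 2.16, 1.5, 4.72 and 1.11 CPM in the WT mice and 108, 39.3, 39.5 and 78 CPM in the V321L mice, and its log2 fold change was 4.54 (SE 0.44, adjusted p = 1.57e-06). *Atp5e* also passed the filter on low counts through V321L mice, so only a rise could be called.

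*Atp5g1*, *Atp5g2* and *Atp5g3* encode the same mature subunit c of the membrane ring, with different import sequences. *Atp5g1* measured 4.31, 4.7, 8.26 and 5.27 CPM in the WT mice and 211, 99.7, 84.3 and 199 CPM in the V321L mice and changed by 4.32 (SE 0.34, adjusted p = 3.71e-07). *Atp5g2* measured 14.2, 10.5, 17.1 and 14.4 CPM in the WT mice and 152, 89, 71.8 and 166 CPM in the V321L mice and changed by 2.66 (SE 0.26, adjusted p = 1.46e-06). *Atp5g3* measured 12, 6.63, 21.8 and 8.6 CPM in the WT mice and 150.3, 74, 55.1 and 151 CPM in the V321L mice and changed by 2.81 (SE 0.36, adjusted p = 1.27e-05). All 3 were higher in every V321L mouse, and no test of their changes against each other was made. Other rises over 4 on the log2 scale were those of *Atp5k* (4.45) and *Atp5h* (4.04), and the other small rises those of *Atp5f1* (1.10) and *Atp5l* (1.81). Many of these genes have processed pseudogenes in the genome, and UMIs that came from a near-identical copy cannot be told apart here.

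The size of the change went with the length of the gene, for the members as for other genes. Gene length, the distance from start to end with introns in GRCm38.p6, was matched for 82 of 82 tested members, with a median of 7.5 kb where the median of all genes tested was 27.5 kb. Across the members the Spearman correlation of length with the log2 fold change was -0.75, and across 11629 other genes it was -0.70. Genes within a library share its depth and are not independent, so these are descriptions. The 23 members under 5 kb had a median log2 fold change of 3.53, with 2.27 for 1105 other genes of that length. The 33 members of 5 to 10 kb had a median of 2.88, with 1.32 for 1330 other genes. For 13 members of 10 to 20 kb the median was 1.97, with 0.75 for 2172 others, and for 10 members of 20 to 50 kb it was 0.57, with 0.08 for 3229 others. Of the members that did not rise, *Ndufs1* spans 33.2 kb, *Sdhaf2* 24.7 kb, *Sdhaf3* 83.7 kb, *Ndufs4* 100.3 kb and *Cox7b2* 105 kb. The last 3 are the only members over 50 kb, where the median was -0.37 for other genes of 50 to 100 kb and -0.83 for those over 100 kb. Members of 20 to 50 kb ranged from -0.17 to 1.81, and *Ndufa10*, which at 34.3 kb is longer than *Ndufs1* and *Sdhaf2*, rose by 1.59. The part of gene length in the change of the members was not tested.

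**Figure D3:**
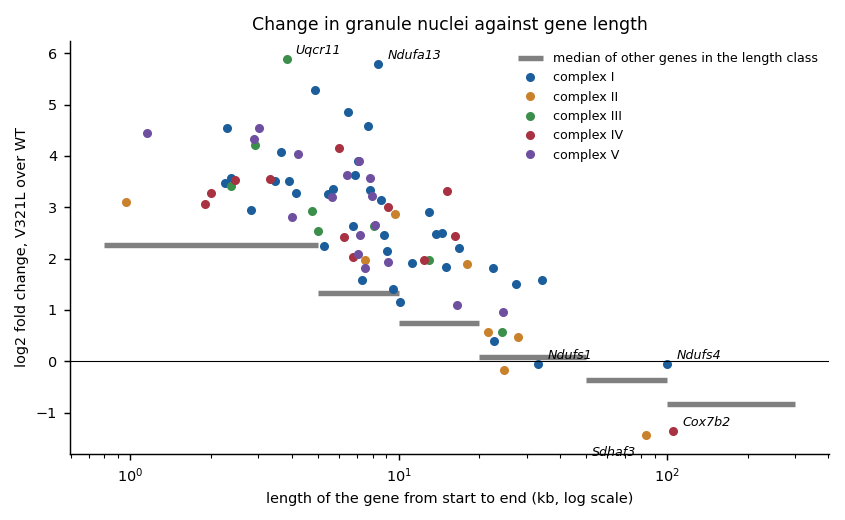
Each point is a tested member, placed by the length of its gene in kb on a log axis and by its log2 fold change in granule nuclei, coloured by complex, and grey bars give the median of all other genes in 6 classes of length. Members lie above the grey bars up to 20 kb, and the 3 longest members lie at or below 0.

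Levels of the members were also measured in the free RNA of each library, as the UMIs of barcodes with at most 100 UMIs. There the 89 members summed to 6221 CPM ± 1425 (SD, n = 4) in WT and to 59068 CPM ± 7869 (SD, n = 4) in V321L libraries, a ratio of 9.50. In GCs they summed to 1334, 1130, 1789 and 1374 CPM in the WT mice and to 11297, 6330.5, 6288 and 11264 CPM in the V321L mice, a ratio of means of 6.25. The level in GCs was thus 0.202 to 0.277 of that in free RNA for WT and 0.116 to 0.173 of it for V321L libraries. WT M1 had the highest value of both among the WT libraries, and V321L F1 and M2 had the higher values of both among the V321L libraries. Member by member, the log2 ratio of the genotypes in free RNA correlated with the log2 fold change in GCs across the 82 tested members (Spearman 0.72, Pearson 0.79), as a description over genes of the same libraries.

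*Ndufa13* had a mean level in free RNA of 46.6 CPM in WT and 1180.2 CPM in V321L libraries, *Uqcr11* 33 CPM in WT and 963 CPM in V321L libraries, and *Cox4i1* 276 CPM in WT and 3028 CPM in V321L libraries. *Ndufs1* had 112 CPM in WT and 106 CPM in V321L libraries and *Sdhaf3* 19.6 CPM in WT and 23 CPM in V321L libraries, so both differed little between the genotypes there. *Cox7b2* had 2.17 CPM in WT and 2.36 CPM in V321L libraries. The WT value of *Cox7b2* rests on few UMIs, so a difference between the genotypes cannot be judged for it. *Cox7b2* and *Sdhaf3* were also the members whose WT level in GCs was above that in free RNA, together with *Ndufs4*, at 59.2 CPM in WT and 309.5 CPM in V321L libraries in free RNA.

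The share of free RNA in GCs was estimated from oligodendrocyte, microglia and vascular markers, on the assumption that GCs make none of them, as 16.7% to 24.5% in WT and 8.88% to 16.9% in V321L mice. With these shares, the free RNA of the library came to between 82.8% and 112% of the level of the members in WT GCs and to between 70.7% and 99.6% of it in V321L GCs. After subtraction of this part from every gene, 41 members were left with enough UMIs to be tested, 26 of which were higher and 3 lower in V321L GCs, namely *Sdhaf3*, *Cox7b2* and *Ndufs4* (-0.50, adjusted p = 0.000965). *Ndufa13*, *Uqcr11* and *Atp5e*, with the largest rises in their complexes, could no longer be tested. For members left with next to no UMIs in WT the fitted fold change has no fixed size and is not given. Such members passed the filter through V321L mice and could only be called higher, so the count of 26 was partly fixed by the subtraction. The share over all genes was not taken for this fit, so its counts have no background beside them.

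The members also moved with mitochondrial share and, less evenly, with depth, which both differed between the genotypes. Among WT GCs, the summed level was 1252 CPM ± 138 (SD, n = 4) in 3330 nuclei with a mitochondrial share of at most 0.1% and 2172 CPM ± 489 (SD, n = 4) in 311 nuclei with over 1%. Among V321L GCs, it was 6505 CPM ± 1629 (SD, n = 4) in 769 nuclei with 0.1 to 0.3% and 10727 CPM ± 2296 (SD, n = 4) in 1417 nuclei with over 1%. Between 0.1 and 0.3%, the genotypes did not overlap, with 1097 to 1731 CPM in WT and 4763 to 8489.9 CPM in V321L mice. Among nuclei with under 0.3%, 72 of 81 tested members were higher and 2 lower, with a median log2 fold change of 2.19. That fit kept 39 of the 904 GCs of V321L M2 and 103 of the 1224 of V321L F1. With each nucleus of at least 1000 UMIs thinned to 1000 UMIs, 75 of 81 were higher and 2 lower, with a median of 2.92. Nuclei of fewer UMIs were left out there, which kept 744 of the 1391 GCs of WT M1 and at least 809 in each V321L mouse. The share over all genes was not taken for either fit, so these counts have no background beside them. In V321L F1, the 1 V321L mouse with at least 20 nuclei of up to 1000 UMIs, the level was 18254 CPM in its 72 such nuclei and 10881 CPM in its nuclei of over 4000 UMIs. Over the V321L mice it was 8856 CPM ± 2712 (SD, n = 4) in nuclei of 2000 to 4000 UMIs and 8543 CPM ± 2658 (SD, n = 4) in those of over 4000. In WT mice it was 1551 CPM ± 286 (SD, n = 4) up to 1000 UMIs and 1226 CPM ± 152 (SD, n = 3) over 4000. The latter leaves out WT M1, which had 14 such nuclei and was the highest WT mouse up to 1000 UMIs (1934 CPM).

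Other groups of mitochondrial genes did not all move as the members did. Of 13 mitochondrially encoded subunits of the same complexes, 7 were higher and 4 lower in V321L GCs, with a median log2 fold change of 0.62. Their summed level was 2172 CPM ± 482 (SD, n = 4) in WT and 8656 CPM ± 3252 (SD, n = 4) in V321L GCs. The highest WT mouse was at 2874 CPM and the lowest V321L mouse at 4168 CPM. The largest rises were those of *mt-Co3* (2.81) and *mt-Nd1* (2.19) and the largest falls those of *mt-Nd6* (-2.95) and *mt-Atp8* (-2.11). *mt-Nd6* is the 1 subunit encoded on the light strand, and *mt-Atp8* overlaps *mt-Atp6*. Of 42 assembly factors, 40 were tested, of which 26 were higher and 6 lower, with a median of 0.94. *Uqcc3* (5.22), a factor of complex III, and *Coa3* (5.17), a factor of complex IV, rose most. *Nubpl* (-1.09), which delivers iron-sulfur clusters to complex I, and *Cox16* (-0.80) fell most.

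Of 8 other electron carriers and subunits outside the rule, 6 were higher and 2 lower, with a median log2 fold change of 2.20. *Etfb* (3.72) and the cytochrome c gene *Cycs* (3.35) rose most, and *Gpd2* (-0.60) and *Etfa* (-0.40) fell. Of 12 enzymes of the citric acid cycle, 8 were higher and 2 lower, with a median of 0.79, from *Mdh2* (2.45) and *Idh3g* (2.11) to *Suclg2* (-1.18) and *Ogdh* (-0.31).

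Regulators of mitochondrial biogenesis went mostly the other way, with 4 of 13 higher, 7 lower and a median log2 fold change of -0.65. *Ppargc1a*, a coactivator of mitochondrial biogenesis that is named here after its values were seen, measured 70.2, 80.6, 67.3 and 86.3 CPM in the WT mice and 57.8, 61.2, 60.2 and 46.8 CPM in the V321L mice, and its log2 fold change was -0.89 (SE 0.14, adjusted p = 8.46e-05). Its 4 V321L mice lay below the 4 WT mice. *Ppargc1a* spans 662 kb, and genes over 100 kb outside the members had a median log2 fold change of -0.83. Largest among the falls were those of *Tfb1m* (-1.55) and *Gabpb1* (-1.08). The orphan receptor *Esrra* (1.55) and the mitochondrial RNA polymerase *Polrmt* (1.54) rose most. Cytosolic ribosomal protein genes, which are short (median 3.18 kb), were higher for 80 of 80 tested, with a median log2 fold change of 3.90. Each of these counts stands beside 38.5% higher and 31.6% lower calls over all genes. The median length of the regulators was 28.9 kb and that of the citric acid cycle enzymes 24.5 kb, and the part of length in these differences was not tested.

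In the other classes of nuclei the calls were mostly in the same direction. In other excitatory neurons 72 of 79 tested members were higher, against 26.8% of 8290 genes, and 1 was lower, *Sdhaf3*, against 24.6%, with a median of 2.58. In GABAergic neurons 36 of 41 were higher, against 21.4% of all genes. In astrocytes or radial glia 49 of 53 were higher, against 26.9%. In oligodendrocytes 30 of 33 were higher, against 25.5%. Of the members with enough UMIs in rarer classes, 9 of 9 were higher in oligodendrocyte precursors (OPCs), against 16.5%, and 5 of 5 in microglia, against 24.9%. WT M1 was left out for OPCs, where it had fewer than 20 nuclei. In these classes, members with few WT UMIs passed the filter through their level in V321L mice. In oligodendrocytes, OPCs and microglia this held for most members, and in GABAergic neurons and astrocytes or radial glia for many. Other excitatory neurons were not exempt, and the number of such members there was not taken. The counts were thus partly or largely fixed by the filter and support nothing. When 1 mouse was left out, the counts ranged from 4 to 16 in OPCs, from 5 to 14 in microglia and from 19 to 41 in oligodendrocytes. The lowest for oligodendrocytes came without V321L F1, and in OPCs the count was 16 whichever WT mouse was left out. The filter on low counts was applied anew in each such fit and depends on group size. These shifts therefore cannot be tied to single mice.

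The log2 fold change of *Cox4i1* was 4.30 in other excitatory neurons, where that of *Cox6a1* was 3.15 and that of *Cox8a* 3.59. Fold changes of these genes in the rarer classes rest on a few WT UMIs or none and are not given. *Ndufs1* was not called in any of the 4 other classes in which it was tested, with log2 fold changes of -0.07, 0.04, 0.53 and -0.07 in other excitatory neurons, GABAergic neurons, astrocytes or radial glia and oligodendrocytes.

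Whether the genotype effect differed between a class and GCs was tested directly, with the mouse as a block. No member differed in other excitatory neurons (0 of 82, against 0.313% of all genes), GABAergic neurons (0 of 80, against 0.576%), oligodendrocytes (0 of 80, against 12%), OPCs (0 of 82, against 1.5%) or microglia (0 of 80, against 8.57%) by edgeR, with 2, 2, 5, 2 and 1 members at an unadjusted p under 0.05. Over all genes, such a p was found for 1302 of 11512, 964 of 10583, 2368 of 10626, 1365 of 12225 and 2098 of 11038, in the same order. In fits of each class alone, 41, 33, 9 and 5 members passed the filter in GABAergic neurons, oligodendrocytes, OPCs and microglia. The other members entered these tests mainly through their level in GCs, where a difference could hardly be called. The counts of 0 in these classes therefore support nothing. In astrocytes or radial glia 1 of 83 differed, against 7.71% of all genes. This was *Atp5o*, which links the head and the stator of the ATP synthase, with a log2 difference of -1.46 (SE 0.47, adjusted p = 0.0441) from GCs, and with each nucleus thinned to 500 UMIs 0 of 76 members differed. The median SE of the difference was 0.29 in other excitatory neurons, 0.85 in oligodendrocytes, 0.99 in microglia and 1.38 in OPCs. Differences well above 1 SE were not called either, such as that of *Sdhc* in other excitatory neurons (0.78, SE 0.25, adjusted p = 0.242 by edgeR). The counts therefore do not exclude differences of such sizes. In females against males the genotype effect in GCs differed for 0 of 82 members and 0% of all genes by edgeR. An unadjusted p under 0.05 was found there for 2 members and for 345 of 12286 genes, and the median SE of the members was 0.58.

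The mean summed level of the members ranged over the classes from 1143 CPM in OPCs to 1857 CPM in astrocytes or radial glia of WT mice and from 6933 CPM in other excitatory neurons to 11142 CPM in astrocytes or radial glia of V321L mice. In every class the lowest V321L mouse lay above the highest WT mouse. Free RNA, estimated by the same markers, came to 28.8% to 60.0% of the level of the members in other excitatory neurons of WT and 27.9% to 74.0% in V321L mice. For microglia and oligodendrocytes the estimate left out the markers of the class itself and added those of astrocytes. On that estimate free RNA came to over 100% in every mouse in microglia (113% to 320.6%) and to between 52.4% and 172% in oligodendrocytes. After subtraction of free RNA, 32 of 42 tested members were higher in other excitatory neurons and 1 was lower. In GABAergic neurons 5 of 10 were higher and in astrocytes or radial glia 4 of 8, and no member could be tested in oligodendrocytes, OPCs and microglia. Only members with enough UMIs left in at least 1 genotype were tested, and the share over all genes was not taken for these fits. The counts thus have no background beside them. The part of free RNA in the differences between the genotypes beyond these values was not tested.

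**Figure D4:**
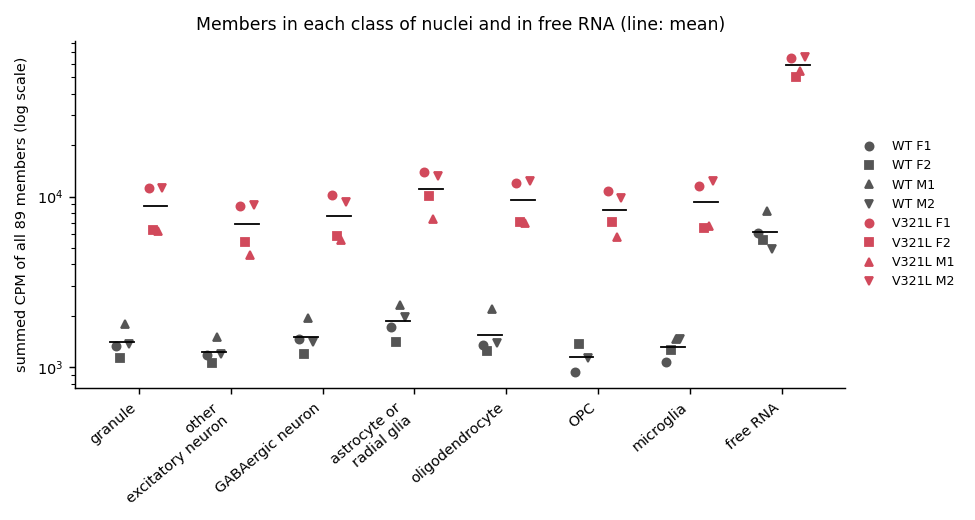
Summed level of the 89 members in CPM on a log axis, in each class of nuclei and in the free RNA of each library, with 1 symbol per mouse, WT in grey, V321L in red and a line at the mean. V321L mice lie between 4538 and 13961 CPM in every class and WT mice between 936 and 2328 CPM, and free RNA lies above the nuclei of its genotype in both.

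At the promoters of the members no difference in accessibility between the genotypes was called. ATAC counts in peaks within 1000 bp of the start of each gene were summed over the GCs of each mouse, for genes with such a peak in all 8 libraries. Of 78 members tested, 0 were called in either direction by edgeR, against 0.017% of 11739 promoters (2 of them). An unadjusted p under 0.05 by edgeR was found for 8 members, 3 higher and 5 lower, and for 1097 of the 11739 promoters. The median log2 fold change of the 78 members was -0.02, with a range from -0.45 to 0.31 and SEs from 0.08 to 0.20. *Uqcr11*, whose promoter is printed above, gave 32.2, 37.8, 28.4 and 31 CPM in the WT mice and 37.7, 25.2, 24.8 and 30.3 CPM in the V321L mice, and its log2 fold change was -0.21 (SE 0.12, adjusted p = 0.584). *Atp5e* gave 28.7, 30.9, 27.9 and 23 CPM in the WT mice and 38.3, 27.3, 26.9 and 45 CPM in the V321L mice, and its log2 fold change was 0.19 (SE 0.12, adjusted p = 0.623). For both, the mice of the 2 genotypes overlapped. *Ndufa11* had a log2 fold change of -0.08 (SE 0.11, adjusted p = 0.881).

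*Ndufa13*, with its RNA 55.2-fold higher, had a promoter accessibility of 107, 90.7, 103 and 106 CPM in the WT mice and 124, 94.5, 87.2 and 127 CPM in the V321L mice. Its log2 fold change there was -0.01 (SE 0.09, adjusted p = 0.981). *Sdhaf3*, whose RNA fell, gave 30.9, 27.2, 28.4 and 29.2 CPM in the WT mice and 43.2, 24.1, 27.6 and 37 CPM in the V321L mice, and its log2 fold change was 0.07 (SE 0.12, adjusted p = 0.896). *Cox7b2* had no peak near its start in any library and was not tested. The lowest value was that of *Ndufs3*, at -0.45 (SE 0.16, adjusted p = 0.404), and the highest that of *Uqcr10*, at 0.31 (SE 0.11, adjusted p = 0.404). For *Ndufa13*, *Sdhaf3*, *Atp5e* and *Uqcr11*, V321L F1 and M2, the mice with more RNA of the members, also had the higher promoter values of their genotype. Their libraries had the fewest peaks (42140 and 36556, with 94282 and 130470 in F2 and M1), which were called in each library separately.

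**Figure D5:**
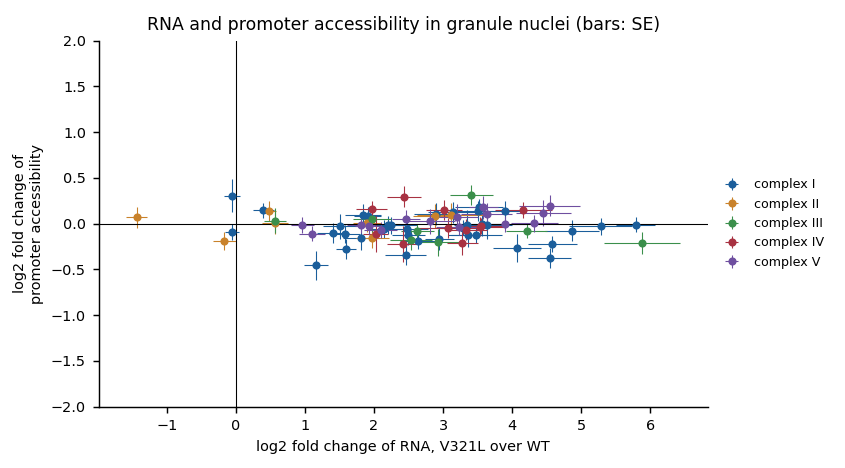
Each point is a member with its log2 fold change of RNA in granule nuclei on the x axis and of promoter accessibility in the same nuclei on the y axis, V321L over WT, with SEs in both directions. RNA spreads from -1.43 to 5.88 while accessibility stays between -0.45 and 0.31.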

How the data were processed

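Microdissected DG was frozen overnight, and its nuclei were isolated and run as Multiome libraries (RNA and ATAC), 1 per mouse. The authors deposited counts for each barcode, as UMIs per gene and ATAC counts per peak, made with Cell Ranger ARC 2.0.2 on mm10 per the submitters' processing notes, with peaks called per library. Barcodes with over 500 and under 8916.1 UMIs, over 250 and under 3307.5 genes were kept where they had 500 or more ATAC counts and less than 2.787% mitochondrial UMIs, and doublets were removed at a Scrublet score of the library mean plus 2 SD. Nuclei were clustered with scanpy 1.11.5 on 3000 variable genes without the members (75 components, 20 neighbours, resolution 1), and each cluster was named from its markers.

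UMIs were summed per mouse and class and tested with edgeR 4.0.16 (quasi-likelihood, TMM, filterByExpr, Benjamini-Hochberg over all genes tested, called at an adjusted p of 0.05), with at least 20 nuclei per mouse. A class-by-genotype term with the mouse as a block and a sex-by-genotype term were tested likewise, and promoters on summed ATAC counts. The fits of granule nuclei, oligodendrocytes, the class-by-genotype term and promoters were run on simulated data with a small share of changed genes and a fixed dispersion. These runs do not cover data in which most genes are called, as in granule nuclei here. DESeq2 1.42.0 and other filters, scalings and depths were tried as alternatives. Replicate labels did not pair the mice (correlation of deviations 0.04, 0.29, -0.13 and 0.05 for F1, F2, M1 and M2).

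The members and the gene lists were chosen with earlier results of these data known. Per-mouse values were given for the members with the largest and smallest change in each complex, for chosen core subunits and paralogues and for members that fell. In the other lists the 2 genes that rose most and the 2 that fell most were named. Gene lengths and promoter sequences are from RefSeq on GRCm38.p6.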

Additional observations from a re-analysis of the deposited data

Results flagged for a closer look

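Over 28 named members, the 5 sums by complex and the sum of all members in granule nuclei, each in groups of 4 mice, 6 of 68 groups (8.82%) held a mouse whose gap to the nearest of the others relative to the range of the group was over Dixon's critical value, where chance gives about 1 in 20. *Cox4i1* was at 53.7 CPM in WT M1 and between 9.83 and 12.6 CPM in the other WT mice. *Uqcr11* was at 4.13 CPM in WT M1 and between 0.308 and 0.641 CPM in the other WT mice. WT M1 also had the most complex IV RNA in its free RNA, 3032 CPM against 1481 to 1750 CPM in the other WT libraries. *Uqcrc2* was at 57.4 CPM in WT M2 and between 45.5 and 46.5 CPM in the other WT mice, *Cox7b2* at 13.6 CPM in WT F1 and between 8.88 and 9.45 CPM in the others, and *Sdha* at 47.5 CPM in WT F2 and between 56.9 and 57.9 CPM in the others. *Sdhaf3* was at 19.4 CPM in V321L M1 and between 22.7 and 23.3 CPM in the other V321L mice.

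The genotype effect on *Atp5o* was smaller in astrocytes or radial glia than in granule nuclei by the test of the difference itself, with a log2 difference of -1.46 (SE 0.471, adjusted p = 0.0441 by edgeR). In separate fits of each class, its log2 fold change was 3.63 in granule nuclei and 2.54 in astrocytes or radial glia. With each nucleus thinned to 500 UMIs, 0 of 76 members differed between these classes.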

How the results depend on the processing

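The count of members higher in V321L granule nuclei was 26 (of 41 tested) after subtraction of free RNA and stayed within 1.5 times of 77 otherwise (75 to 77 with each mouse left out), and the lower ones numbered 1 among nuclei of 1000 to 2500 UMIs and otherwise 2 or 3. The median log2 fold change was 2.19 under a mitochondrial share of 0.3% and 2.00 after subtraction of free RNA. The latter median includes members with next to no WT UMIs left, whose fold change has no fixed size. *Ndufs1* changed sign to 0.054 with no filter on low counts, 0.10 after subtraction of free RNA and 0.39 with plain library sizes, and *Ndufs4* to 0.052 with no filter, 0.019 among nuclei of 1000 to 2500 UMIs, 0.40 with plain library sizes and 0.0070 without V321L F2, with a range from -0.18 to 0.0070 over mice left out. In other classes, thinning to 500 UMIs left 11, 0, 7, 3, 0 and 0 members to test in other excitatory neurons, GABAergic neurons, astrocytes or radial glia, oligodendrocytes, OPCs and microglia, of which 9, 0, 6, 3, 0 and 0 were higher and, in other excitatory neurons, 0 lower. Subtraction of free RNA gave 32, 5, 4, 0, 0 and 0 higher, with none left to test in the last 3. Thinned, the count that differed between astrocytes or radial glia and granule nuclei was 0. With each mouse left out, the higher counts ranged over 72 to 74, 31 to 54, 47 to 66, 19 to 41, 4 to 16 and 5 to 14 in the same order of classes. The filter on low counts, which depends on group size, was applied anew in each of these fits. In OPCs the count was 16 without WT F1, F2 or M2 and 4 or 5 without V321L F1, F2 or M2. In microglia it was 13 or 14 without any 1 WT mouse, 11 without V321L F2 and 8 without V321L M1. With the replicate block, 77 members were higher and 2 lower in granule nuclei, with a median of 2.83, and the numbers do not pair the mice. The causes of these shifts were not tested beyond the counts of members tested. Shares of all genes called are given only for the main fits and for plain library sizes. DESeq2 gave 76 higher and 2 lower. Of the values of the 28 members given for each mouse, 561 kept their direction and their side of the threshold, 7 changed sign, 4 lost a call (*Sdha* and *Uqcrc2*) and 1 gained one (*Ndufs4*, after subtraction of free RNA). *Sdhc* and *Ndufv2*, which are not among the 28, also lost their calls in alternatives given beside them. The other 210 values of counts and medians moved less than 1.5 times or by less than the spread between mice.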
